A study of Mus musculus with 15 samples.

Results

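The 4 libraries described here were made from 1 bait, a HindIII site at Lpin1, in 3T3-L1 cells on day 0 and on day 6 of adipogenesis, with replicate libraries 1 and 2 on each day. They were chosen by bait and day, and they are 4 of the 27 libraries of the study. The other libraries read the same bait on days 1 and 2 and in B cells, or used baits at Pparg and Ifng. 3T3-L1 is a mouse fibroblast line that turns into fat cells under a hormone cocktail. On day 0, per the labels, confluent preadipocytes were given 1 µM dexamethasone, 0.5 mM 3-isobutyl-1-methylxanthine (IBMX), 1 µg/ml insulin and 10% serum, and day 6 stands for mature adipocytes. Fixation was the same on both days, 10 min in 2% formaldehyde. The same cocktail is listed for both days, and whether day 0 cells were fixed before it was added is not given here. Effects of the cocktail and of time cannot be told apart. 3T3-L1 is 1 established line, and differentiation in it is usually incomplete. The data hold no expression values, so neither the share of fat cells on day 6 nor the identity of the cells could be checked.

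In 4C-seq, chromatin is fixed, cut and ligated, and the fragments joined to 1 chosen site, the bait, are amplified and sequenced. A site that lay near the bait in the nucleus is ligated to it more often, so the reads at each site form a contact profile of the bait. Contacts fall with distance along the chromosome, are favoured within the same domain, and at long range link stretches of the same chromatin type, either active or silent. Lpin1 encodes lipin-1, an enzyme that converts phosphatidic acid to diacylglycerol on the way to triglyceride and that also acts as a transcriptional coactivator. Mice without it fail to form normal fat tissue, and its expression rises during adipogenesis. The profile on day 6 against day 0 addresses whether the surroundings of this gene differ between preadipocytes and adipocytes.

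The bait site lay at chr12:16597111-16597116 in mm9. In the mouse annotation of another build, from which only gene order was taken, Lpin1 stands between Trib2 and Ntsr2. Beyond Trib2, on the low-coordinate side, follow Lratd1, Nbas, Ddx1 and Mycn, of which Mycn encodes a transcription factor of the MYC family. Beyond Ntsr2, on the high-coordinate side, follow Greb1, E2f6, Rock2, Pqlc3, Kcnf1 and Pdia6, of which E2f6 encodes a repressor and Rock2 a kinase that acts on the actin cytoskeleton. Which windows hold which gene is not given, because coordinates of that build cannot be used here.

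The deposited values are read counts per HindIII site. The day 0 libraries held 2146467 reads (replicate 1) and 2395394 reads (replicate 2), and the day 6 libraries 1875284 and 867255 reads. The bait site itself took 24.6% and 8.60% of the reads on day 0 and 3.07% and 8.44% on day 6. The 8 sites within 10 kb of the bait were left out, because reads there include uncut and self-ligated bait. This left 1453951 and 2087782 reads on day 0 and 1657988 and 717737 reads on day 6. No molecular identifiers are given, so reads of 1 site may be copies of 1 ligation product.

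The libraries of the 2 days differed most in how many sites they captured, a captured site being one with at least 1 read. On chromosome 12, 11547 and 9142 of 37887 sites were captured on day 0, and 4336 and 2327 on day 6. On the other chromosomes, 18807 and 16348 of 784602 sites were captured on day 0, and 7931 and 3483 on day 6. Both day 6 libraries were below both day 0 libraries. The reads per captured site ran the other way: on other chromosomes they were 18.1 and 44.0 on day 0 and 83.4 and 89.5 on day 6. Of the captured sites there, 15.2% and 19.1% had a single read on day 0 and 21.1% and 25.2% on day 6. Fewer captured sites with more reads on each move with the day in every comparison below, and their part in each result was not tested. Values are therefore also given after reads were drawn at random from each library until it held the same number of captured sites as the library with the fewest, 2327 on chromosome 12 and 3483 elsewhere. Matching in this way left unequal read numbers, 6904 reads of day 0 replicate 1 and 404701 of day 6 replicate 2 on chromosome 12. With 2 libraries a day, the smallest p that the two-sided exact permutation test can give is 0.333, so it cannot pass 0.05.

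Chromosome 12 held most of the reads on both days and a smaller share on day 6. It took 76.6% and 65.5% of the reads on day 0 and 60.1% and 56.5% on day 6. The groups did not overlap, and the means were 71.1% ± 7.84 (SD, n = 2) and 58.3% ± 2.53 (SD, n = 2), a difference of -12.7 percentage points with an exact p of 0.333. The day 1 libraries, at 76.7% and 71.7%, and the day 2 libraries, at 65.8% and 63.0%, lay above both day 6 libraries. Without day 0 replicate 1 the difference was -7.20 points, and without day 0 replicate 2 it was -18.3 points. The share depended on what was counted. Of captured sites rather than reads, chromosome 12 held 38.0% and 35.9% on day 0 and 35.3% and 40.1% on day 6, a difference of 0.746 points in the other direction. With the number of captured sites of the whole library matched at 5810, it held 52.3% and 45.9% on day 0 and 38.0% and 40.1% on day 6. Day 6 replicate 2, the library with the fewest, kept its value, while the shares of the other libraries rose with thinning. Matching leaves unequal read numbers, so the direction for captured sites cannot be told from it.

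Along chromosome 12 the fall of reads with distance had nearly the same slope on both days. The exponent of reads per site against distance, from 50 kb to 20 Mb, was -1.13 and -1.06 on day 0 and -1.09 and -1.10 on day 6. The day 6 values lay between those of day 0. Of the reads on chromosome 12, the first 1 Mb on either side of the bait took 62.4% and 54.3% on day 0 and 61.2% and 59.7% on day 6, which overlap (difference 2.15 points, exact p = 1). Reads beyond 20 Mb made up 14.9% and 19.8% on day 0 and 16.2% and 17.3% on day 6, which overlap as well. In captured sites the profile differed. The exponent was -0.207 and -0.252 on day 0 and -0.400 and -0.552 on day 6, the share within 1 Mb was 4.89% and 6.14% on day 0 and 12.2% and 20.5% on day 6, and the share beyond 20 Mb was 57.4% and 54.1% on day 0 and 43.3% and 36.1% on day 6. None of these overlapped. With the numbers matched, the differences were 1.01 points within 1 Mb and -2.08 points beyond 20 Mb. Reads within 500 kb made up 43.6% and 35.9% on day 0 and 44.6% and 44.0% on day 6, which do not overlap. The direction of the first 3 differences, in reads, turned when day 0 replicate 2 was left out, to -1.92 points within 1 Mb, 1.87 points beyond 20 Mb and 0.0366 for the exponent.

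Within these totals the near part of the profile was arranged differently. Between 10 and 100 kb lay 22.9% and 16.5% of chromosome 12 reads on day 0 and 26.5% and 26.1% on day 6, on 44 sites. Between 100 kb and 1 Mb lay 39.5% and 37.8% on day 0 and 34.7% and 33.6% on day 6. Between 1 and 5 Mb lay 11.7% and 12.5% on day 0 and 9.54% and 8.73% on day 6. In each of these 3 classes the 2 days did not overlap, with more reads near the bait on day 6 and fewer at middle distances. From 5 Mb outwards, with both sides together, the days overlapped in every class. The class of 5 to 20 Mb held 11.1% and 13.5% on day 0 and 13.1% and 14.3% on day 6. The region beyond 50 Mb held 8.55% and 11.7% against 8.67% and 10.9%. By side, the spans of 5 to 10 Mb and 10 to 20 Mb did not overlap. On the low side, 10 to 20 Mb held less on day 6, 2.27% and 2.83% on day 0 against 2.24% and 1.11%. The other such spans held more on day 6. Shares of 1 total are not independent, since a higher share in 1 class lowers the others.

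The difference at middle distances lay mainly on the low-coordinate side, where Trib2, Lratd1 and Nbas follow. Within 5 Mb of the bait this side held 52.2% and 53.8% of the reads on day 0 and 47.8% and 47.8% on day 6, means of 53.0% ± 1.13 (SD, n = 2) and 47.8% ± 0.0501 (SD, n = 2). The difference was -5.16 percentage points, with an exact p of 0.333. The 4 libraries of days 1 and 2 held 51.3% to 53.6% and so lay with day 0, and the B cell library held 56.6%. The direction was the same under each alternative that was run: it was -5.50 points in captured sites, -2.13 points in captured sites matched in number, -5.42 points without the sites up to 100 kb, -4.20 points within 1 Mb, and -4.36 to -5.96 points when each library was left out in turn.

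By distance on that side, the span of 100 to 500 kb held 7.82% and 8.08% of chromosome 12 reads on day 0 and 5.40% and 4.68% on day 6. The 4 libraries of days 1 and 2, at 6.74% to 9.06%, lay above both day 6 values. The span of 1 to 5 Mb held 8.75% and 9.13% on day 0 and 6.34% and 6.47% on day 6, again below days 1 and 2 (7.65% to 9.02%). A local peak at 500 kb to 1 Mb on the low side held more reads than any other plotted span from 100 kb to 2 Mb on either side. It held 12.7% and 12.2% on day 0 and 11.8% and 10.8% on day 6, on 172 sites. Spans differ in width and sites. Per site, this span held 823 and 971 reads on day 0, more than its neighbours on the low side. The span of 100 to 250 kb on the high side, with 43 sites, held 1854 and 1965 per site. On the high-coordinate side, where Ntsr2 and Greb1 follow, 100 to 500 kb held 12.9% and 11.4% on day 0 and 12.7% and 13.2% on day 6, which overlap. There 50 to 100 kb held 10.1% and 7.60% on day 0 and 11.7% and 10.9% on day 6, and 500 kb to 1 Mb held 6.07% and 6.14% on day 0 and 4.81% and 4.99% on day 6. In 14 of 18 spans by side the days did not overlap (77.8%), so a span that does not overlap is the rule here and not particular to a side.

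**Figure D1:**
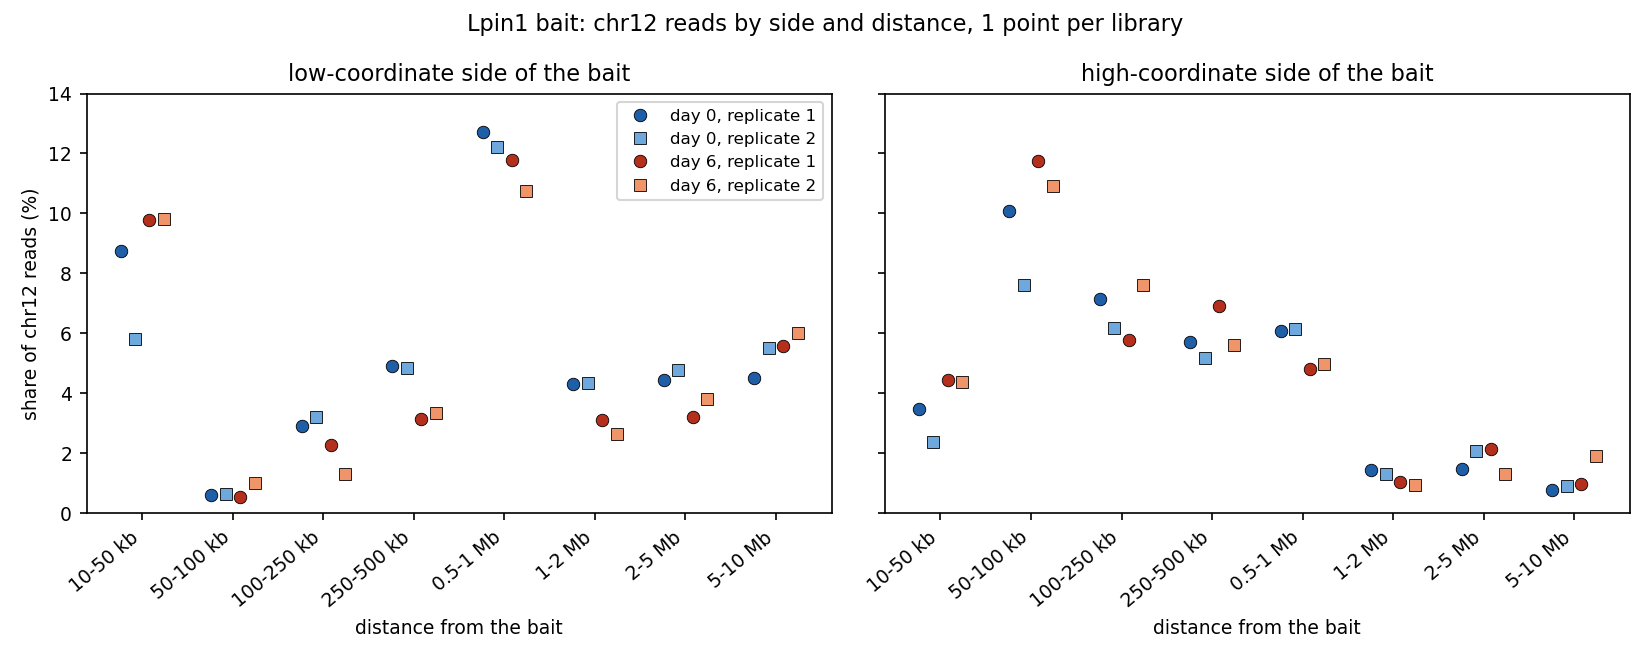
Share of chromosome 12 reads (%) in spans of distance from the Lpin1 bait, on the low-coordinate side (left) and the high-coordinate side (right); each point is 1 library, blue for day 0 and red for day 6, circles for replicate 1 and squares for replicate 2. On the low side the day 6 points lie below the day 0 points in every span from 100 kb to 5 Mb, and on the high side the days overlap from 100 to 500 kb.

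As deposited, the share of sites captured was lower on day 6 in each class of distance, both sides together. Of the 331 sites from 1 to 2 Mb on the low side, 75.8% and 68.0% were captured on day 0 and 38.4% and 23.3% on day 6. Of the 320 sites at the same distance on the high side, 33.1% and 32.5% were captured on day 0 and 21.9% and 12.5% on day 6. After matching, the low side held 27.1% and 25.9% on day 0 and 22.1% and 23.3% on day 6, and the high side overlapped, with 13.2% and 11.5% on day 0. The low side was thus captured more than the high side in each of the 4 libraries, before and after matching. After matching, the low side was lower on day 6 from 1 to 5 Mb, with 22.1% and 20.3% on day 0 and 17.3% and 19.5% on day 6. Nearer to the bait it was not: from 10 kb to 1 Mb it held 70.5% and 69.7% on day 0 and 71.8% and 78.5% on day 6. At 5 to 20 Mb, both sides together, the order of the days turned with matching. As deposited, 40.6% and 32.9% were captured on day 0 and 16.8% and 8.34% on day 6. After matching, the share was higher on day 6 without overlap, with 7.85% and 7.60% on day 0 and 8.45% and 8.34% on day 6.

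**Figure D2:**
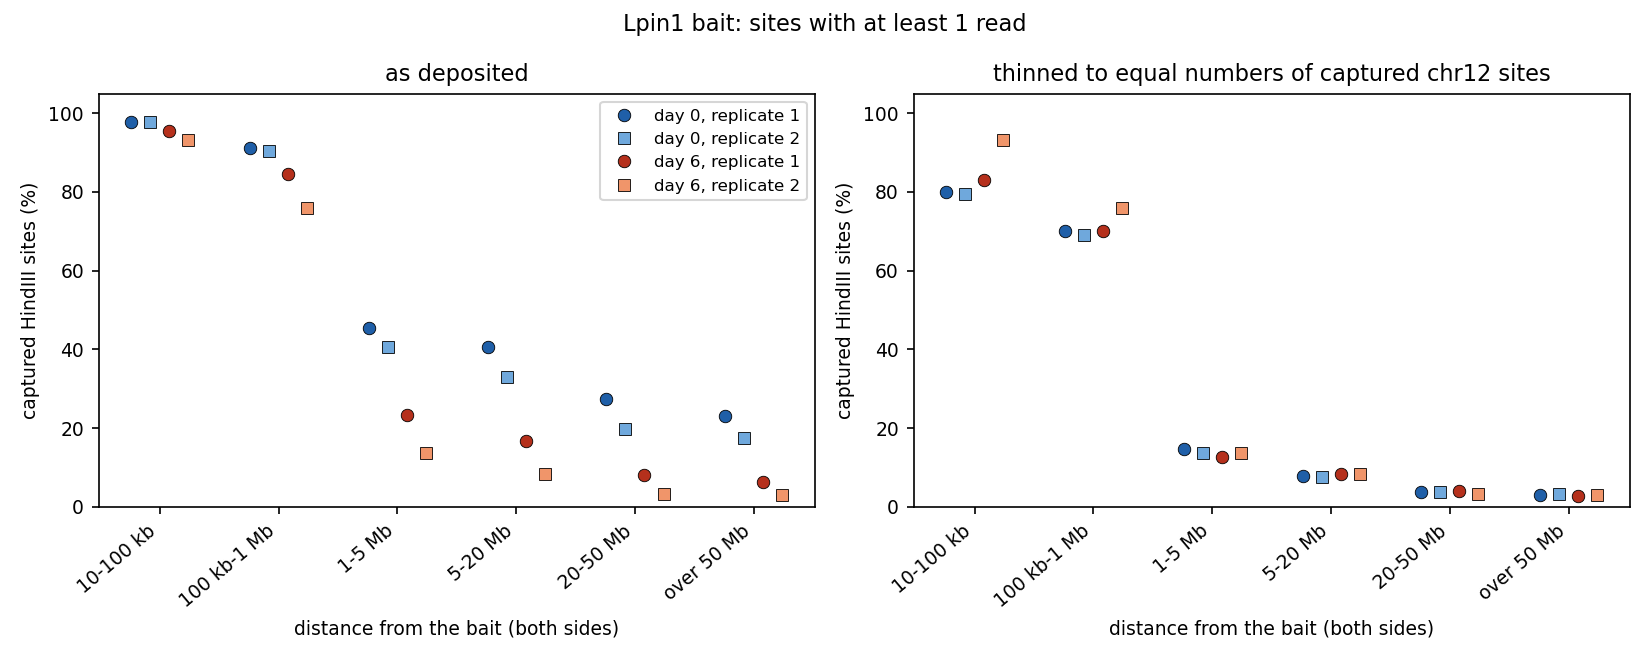
Percentage of HindIII sites with at least 1 read against distance from the bait, both sides together, as deposited (left) and after each library was thinned to 2327 captured sites on chromosome 12 (right); each point is 1 library. As deposited, both day 6 libraries lie below both day 0 libraries in all 6 classes, and after thinning the 4 libraries lie close together beyond 1 Mb.

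Windows of 100 kb were tested with edgeR's quasi-likelihood test, fitted over all 9 libraries of the bait. Of 1154 windows, 4 differed between day 6 and day 0 at a Benjamini-Hochberg adjusted p under 0.05 (0.347%), 2 higher (0.173%) and 2 lower (0.173%), and 164 had an unadjusted p under 0.05. The libraries of the days did not overlap in 133 windows in the higher direction (11.5%) and 446 in the lower direction (38.6%), 50.2% in all. The median log2 difference over all windows was -0.63, so a value near -0.63 is the typical window and not a local change. Beyond 20 Mb the median was -1.24 over 832 windows, 187 of which had no read in either day 6 library. Fold changes are on the scale of CPM, reads scaled to a common library total, scaled by edgeR's trimmed mean of M-values (TMM).

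The 2 higher windows were those that hold and adjoin the bait, each without the sites within 10 kb. The window from 16.6 Mb held 14.2% and 10.6% of chromosome 12 reads on day 0 and 16.8% and 16.1% on day 6. Its log2 difference was 0.71 ± 0.14 (SE), with an adjusted p of 0.000168 by edgeR. The window from 16.5 Mb held 9.12% and 6.19% on day 0 and 10.2% and 10.1% on day 6, with a log2 difference of 0.71 ± 0.15 (SE) and an adjusted p of 0.00285 by edgeR. In both windows day 0 replicate 1 lay nearer to day 6 than to day 0 replicate 2. Neither window passed without day 0 replicate 2, and the second did not pass without day 6 replicate 2 either. In both, nearly all of their sites were captured in each library, 24 of 25 sites in all 4 libraries in the first. The difference there is therefore one of reads on sites already captured, and neither window passed with captured sites matched in number (adjusted p 0.169 and 0.321 by edgeR).

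The 2 lower windows lay at 13.7 and 5.0 Mb, on the low-coordinate side. The window from 13.7 Mb held 1145 and 1353 reads on day 0 and 38 and 2 on day 6, on 23 and 17 captured sites of 26 on day 0 and on 7 and 2 on day 6. The log2 difference was -5.19 ± 1.23 (SE), with an adjusted p of 0.00978 by edgeR, and days 1 and 2 held 776 to 2563 reads. The window from 5.0 Mb held 1626 and 1376 reads on day 0 and 189 and 17 on day 6, a log2 difference of -3.11 ± 0.81 (SE) with an adjusted p of 0.0369 by edgeR. Both windows held many reads on day 0 and on days 1 and 2, the second 1306 to 2790 on days 1 and 2, and few on day 6. The window from 13.7 Mb passed also with matched captured sites, at an adjusted p of 0.00170 by edgeR. Neither passed when captured sites replaced reads, nor without either day 0 library.

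Next in order of p, without passing, came windows from 29.6, 45.3 and 8.3 Mb in the higher direction and from 12.8, 12.3 and 37.3 Mb in the lower direction. The window from 45.3 Mb held 792 and 1149 reads on day 0 and 2663 and 938 on day 6 (adjusted p 0.210 by edgeR). The window from 12.8 Mb held 862 and 1090 reads on day 0 and 14 and 1 on day 6 (adjusted p 0.0536 by edgeR). Of the 4 passing windows and these 6, the reads of the lower ones came on day 6 from 7 sites or fewer in each library. Leaving out day 6 replicate 1 raised the number of passing windows to 111, and leaving out day 0 replicate 2 gave 0. Without day 0 replicate 1 there were 2, and without day 6 replicate 2 there were 9. DESeq2 called 125, 24 higher and 101 lower.

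The windows captured most, beyond 1 Mb from the bait, were largely shared by the days. On day 0 they began at 17.6, 21.4, 10.4, 13.2 and 17.7 Mb and on day 6 at 17.6, 17.7, 13.2, 21.2 and 21.4 Mb. The window from 17.6 Mb had 25 and 25 of its 25 sites captured on day 0 and 21 and 17 on day 6. It held 6866 and 7943 reads on day 0 and 3634 and 1352 on day 6, a log2 difference of -0.46 with an adjusted p of 0.602 by edgeR. The ranking was not corrected for distance, and the windows from 17.6 and 17.7 Mb lay 1.05 and 1.15 Mb from the bait. None of those named passed the test, which does not show that they were unchanged. In simulated data, 0 of 100 windows of 100 kb changed 4-fold were found. The windows from 21.4 and 10.4 Mb had log2 differences of 1.02 and 1.22 (adjusted p 0.305 and 0.294 by edgeR). The others named had log2 differences of -0.46 to 0.41.

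Wider windows of 1 Mb gave a different balance. Their windows are named here although the rule for naming was written for 100 kb, and they were chosen after their values were seen. Of 119 windows, 8 passed (6.72%), 7 higher (5.88%) and 1 lower (0.84%), by the same edgeR test. The libraries of the days did not overlap in 29 windows in the higher direction (24.4%) and in 25 in the lower direction (21%), 45.4% in all. The median log2 difference was 0.04. All 7 higher windows lay over 5 Mb from the bait, as did most windows tested. Of the 119, 24 lay at 5 to 20 Mb, with 4 higher, and 85 lay beyond 20 Mb, with 3 higher. Their distance is therefore not particular to them.

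The window from 8 Mb, on the low side, held 1.44% and 1.86% of chromosome 12 reads on day 0 and 2.37% and 2.46% on day 6. Its log2 difference was 0.83 ± 0.19 (SE), with an adjusted p of 0.00235 by edgeR. By captured sites it held 2.14% and 2.54% of those on chromosome 12 on day 0 and 3.51% and 4.25% on day 6. The day 6 libraries were above the day 0 libraries by either count. The window from 25 Mb held 0.508% and 0.706% of reads on day 0 and 0.899% and 1.32% on day 6, with a log2 difference of 1.15 ± 0.27 (SE). The window from 31 Mb held 0.422% and 0.512% on day 0 and 0.644% and 1.06% on day 6, and that from 33 Mb 0.484% and 0.486% on day 0 and 0.763% and 0.826% on day 6. Those from 25, 31 and 33 Mb form a group on the high side, and each also passed when captured sites replaced reads.

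Farther out, the window from 80 Mb held 0.231% and 0.306% of reads on day 0 and 0.512% and 0.762% on day 6. The other higher windows began at 40 Mb (log2 difference 1.20) and 113 Mb (1.60). In the window from 113 Mb the higher value rested on day 6 replicate 2, at 0.734% of reads against 0.232% in replicate 1, and its share of captured sites was lower on day 6. The lower window, from 90 Mb, held 1089 and 1307 reads on 41 and 19 captured sites on day 0. On day 6 it held 0 reads in replicate 1 and 9 reads on 1 site in replicate 2, of 387 sites. Its log2 difference was -6.36 ± 1.67 (SE), with an adjusted p of 0.00690 by edgeR, and it passed in captured sites too. Without TMM scaling, the window from 90 Mb was the sole one to pass, 0 were higher, and the median log2 difference was -0.23. The direction of the balance therefore rests on the scaling. None of the 1-Mb windows passed without either day 0 library, while 44 passed without day 6 replicate 1 and 13 without day 6 replicate 2.

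**Figure D3:**
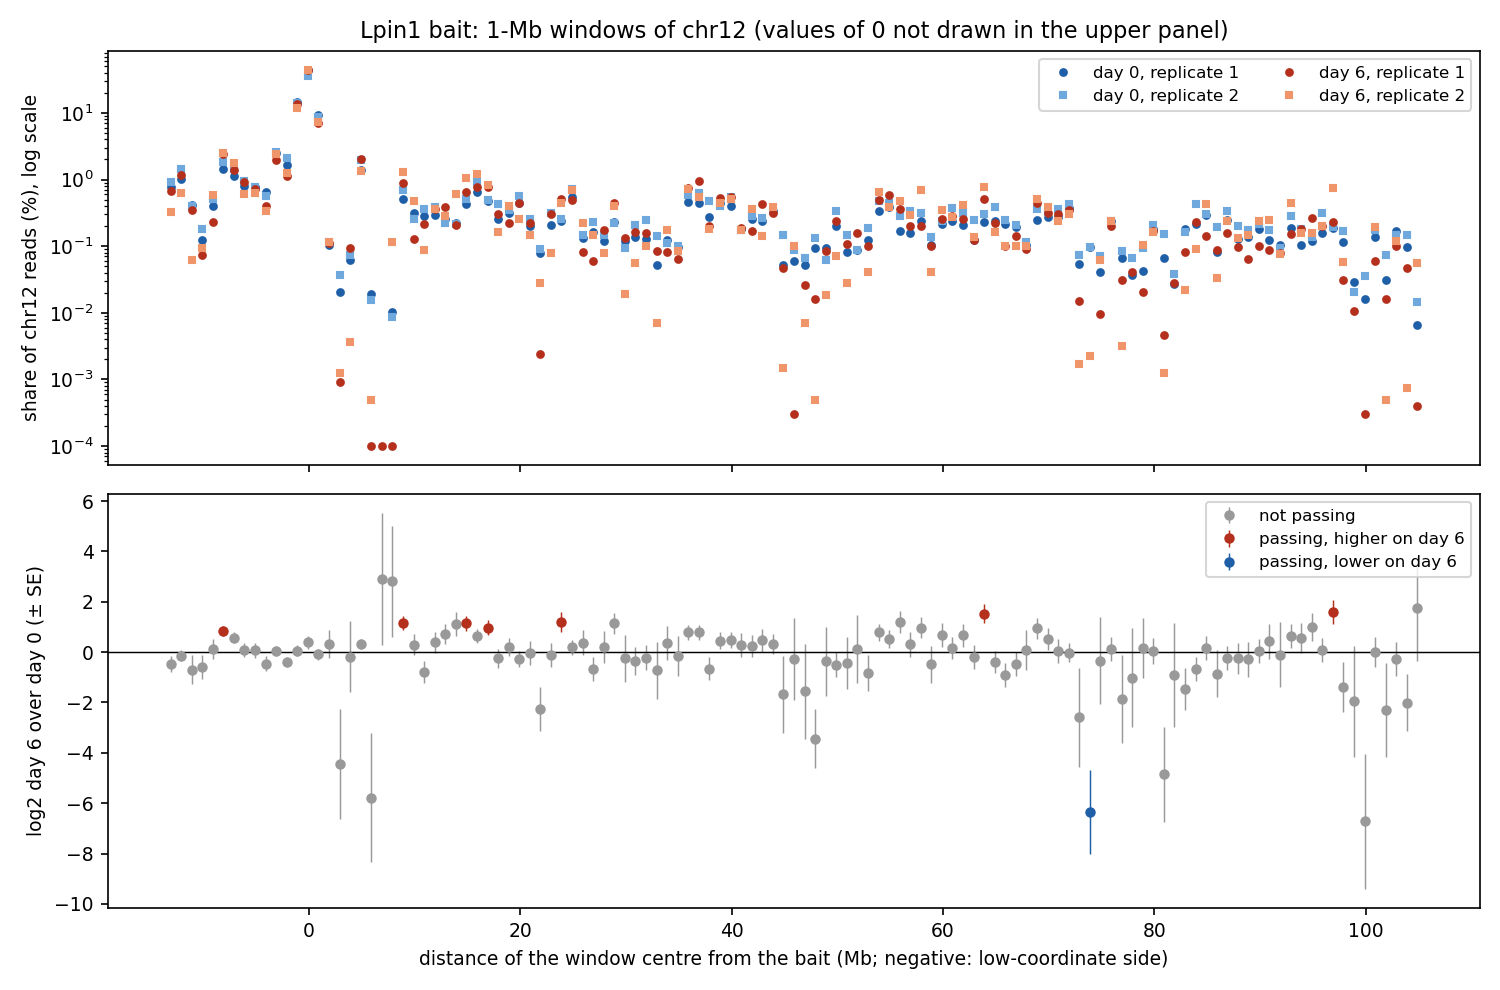
Windows of 1 Mb on chromosome 12 by distance from the Lpin1 bait: above, the share of chromosome 12 reads in each library (%, log scale); below, the log2 difference of day 6 over day 0 with its SE from edgeR, red where it passed as higher and blue where it passed as lower. The 7 red windows have differences of 0.83 to 1.60, and low windows such as that from 90 Mb have no or few reads on day 6.

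The higher windows led to a question about the whole profile, asked after the data were seen: whether day 6 held more of its contacts in the regions that the bait contacts most. To keep the ranking apart from the compared libraries, windows were ranked by their captured share in the 4 libraries of days 1 and 2 and divided into quintiles, equal groups from the least to the most captured. Days 1 and 2 follow the cocktail given on day 0, as day 6 does. The ranking may therefore not be neutral between day 0 and day 6, and its part in the differences was not tested. On chromosome 12 beyond 5 Mb, the top quintile of 1-Mb windows held 48.3% and 47.2% of the reads on day 0 and 55.9% and 52.9% on day 6. The means were 47.8% ± 0.796 (SD, n = 2) and 54.4% ± 2.15 (SD, n = 2), a difference of 6.59 percentage points with an exact p of 0.333. The bottom quintile held 4.05% and 4.57% on day 0 and 2.24% and 1.75% on day 6. The days did not overlap at either end. Of the libraries not compared, day 2 replicate 1 and B cells, each at 51.4%, came nearest to day 6, and the other libraries of days 1 and 2 held 48.0% to 48.6%. The difference in the top quintile was 11.8 points in captured sites, 6.20 points with captured sites matched, 5.09 points with windows of 100 kb, and 5.08 to 8.11 points when each library was left out in turn.

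The 22 windows of that top quintile lay in 11 stretches. The longest were from 8 to 12 Mb on the low side and from 31 to 34 Mb on the high side, and others included 3 to 5, 35 to 37, 52 to 54, 55 to 57, 70 to 72 and 85 to 87 Mb. Of these 22 windows, 4 were among those that passed as higher (8, 25, 31 and 33 Mb) and none was lower. In 14 of them both day 6 libraries lay above both day 0 libraries, against 29 of all 119 windows (24.4%). The median log2 difference was 0.52, against 0.04 over all windows. In the bottom quintile, also 22 windows, the median was -0.96. There 10 windows had both day 6 libraries below both day 0 libraries, against 25 of all 119 (21%), and the window from 90 Mb belongs to it. These counts rest on the same reads as the quintile shares and are not separate support.

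The other chromosomes gave the same order. Of captured sites there, the top quintile of 500-kb windows held 35.4% and 35.3% on day 0 and 41.0% and 40.8% on day 6. The means were 35.3% ± 0.0891 (SD, n = 2) and 40.9% ± 0.181 (SD, n = 2), a difference of 5.53 percentage points with an exact p of 0.333. The spread within each of these 2 days was below the difference between them, but it rests on 2 libraries a day. On day 1 and on day 2, the 2 replicates lay farther apart than day 0 and day 6 did. Days 1 and 2, which set the ranking, were not in between: their replicate 1 libraries held 38.6% and 37.9%, and their replicate 2 libraries, with 6882 and 8423 captured sites, held 47.3% and 46.6%, above both day 6 libraries. The difference was 8.18 points in reads, 5.53 points with captured sites matched, 5.43 points with at least 2 reads per captured site and 4.35 points with windows of 1 Mb. Of 4910 windows, 87.9% and 87.9% held a captured site on day 0 and 68.0% and 45.0% on day 6, and with matched numbers 45.5% and 46.4% on day 0 and 44.0% and 45.0% on day 6.

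The same windows were then read in the other baits, outside chromosomes 6, 10 and 12. The top quintile, ranked on the Lpin1 libraries of days 1 and 2, held 34.6% and 34.4% of the Lpin1 captured sites on day 0 and 40.5% and 39.6% on day 6, 5.60 points higher. It held 37.9% and 40.3% of the Pparg captured sites on day 0 and 30.6% and 33.1% on day 6. The difference between these baits was 12.9 points, with a two-sided exact p of 0.0556, the smallest that permuting days within each bait can give. It held 15.5% and 12.7% of the Ifng captured sites on day 0 and 15.8% and 14.3% on day 6, so these windows were not the ones Ifng contacted most. The difference from Lpin1 was 4.68 points, with an exact p of 0.278. With windows ranked on each bait's own libraries, the top quintile of Pparg held 45.3% and 50% on day 0 and 36.4% and 40.6% on day 6, and that of Ifng 42.0% and 40.3% on day 0 and 42.4% and 42.0% on day 6. The differences from Lpin1 were then 14.8 points (exact p = 0.0556) and 4.58 points (exact p = 0.278).

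**Figure D4:**
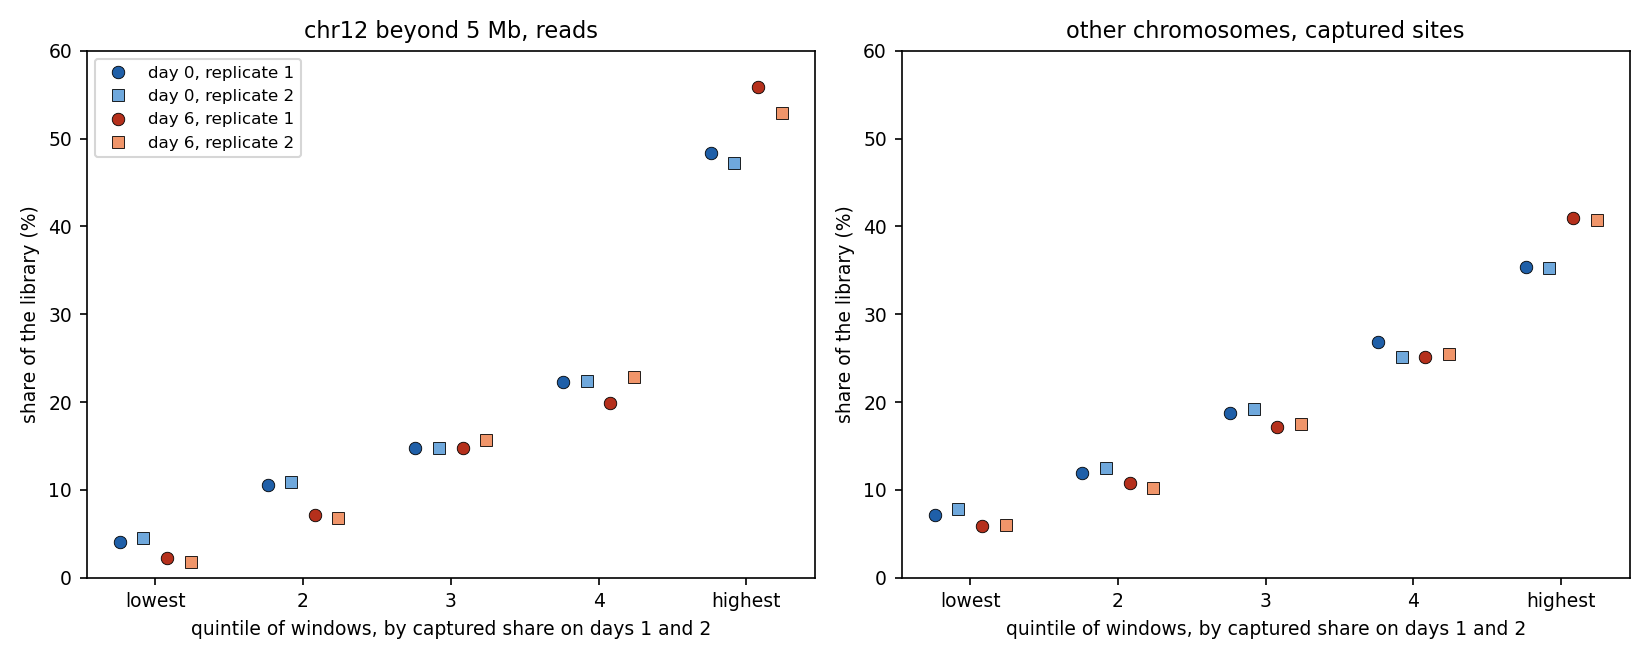
Share of each library (%) in quintiles of windows ranked by captured share on days 1 and 2: left, reads on chromosome 12 beyond 5 Mb in windows of 1 Mb; right, captured sites on other chromosomes in windows of 500 kb; each point is 1 library. The day 6 points lie above the day 0 points in the top quintile and below them in the bottom quintile in both panels.

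Single windows on other chromosomes did not pass. Of 2250 windows of 500 kb, edgeR called 0 (0%) on captured sites, with 158 at an unadjusted p under 0.05 and a smallest adjusted p of 0.551, and DESeq2 called 0, with 24 at an unadjusted p under 0.05. The days did not overlap in 256 windows in the higher direction (11.4%) and 635 in the lower direction (28.2%). In data simulated with the fitted spread, 7 of 100 windows changed 4-fold and 0 of 100 changed 2-fold were found on other chromosomes, and 0 of 100 of either size among the 100-kb windows of chromosome 12. Changes of that size in such windows were therefore mostly not detectable with these libraries and their fitted spread. In the 1-Mb windows of chromosome 12, 7 of 14 windows changed 4-fold and 3 of 14 changed 2-fold were found, and 1 of 91 unchanged windows was called.

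The lower windows nearest to passing lay on chromosomes 10, 8, 15, 8 and 2. On chromosome 10, the window from 107.0 Mb had 17 and 21 of its 151 sites captured on day 0 and 2 and 1 on day 6, and days 1 and 2 had 4 to 10. On chromosome 8, the window from 95.0 Mb had 7 and 11 of 181 sites captured on day 0 and 0 and 0 on day 6. On chromosome 15, the window from 80.5 Mb had 12 and 12 of 169 sites on day 0 and 1 and 0 on day 6. These windows had few captured sites on day 6, as most windows did, and their adjusted p was 0.551. The higher windows nearest to passing lay on chromosomes 15, 13, 15, 3 and 19. That of chromosome 15 from 42.0 Mb had 2 and 1 captured sites on day 0 and 6 and 3 on day 6, of 193.

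The regions of other chromosomes captured most were largely shared by the days. A multiple is the captured share of a window or chromosome over that of all chromosomes but 12 in the same library. The window of chromosome 10 from 117.0 Mb was captured at 16.6 and 16.9 times on day 0 and 26.7 and 41.1 times on day 6, with 59 and 52 of 148 sites captured on day 0 and 40 and 27 on day 6. Its log2 difference was 0.63 ± 0.53 (SE), with an adjusted p of 0.872 by edgeR. The adjoining window from 116.5 Mb had multiples of 11.6 and 15.0 on day 0 and 14.1 and 12.3 on day 6. Chromosome 10 holds the Ifng bait and was left out when baits were compared. Whether capture of these 2 windows is particular to Lpin1 was therefore not tested. The window of chromosome 11 from 3.0 Mb had multiples of 6.64 and 8.73 on day 0 and 12.7 and 8.53 on day 6, and that of chromosome 2 from 77.5 Mb had 5.85 and 5.81 on day 0 and 10.7 and 7.17 on day 6. The window of chromosome 11 from 53.5 Mb, among the first 5 on day 6 and not on day 0, had 1.96 and 1.93 on day 0 and 5.31 and 9.07 on day 6. The window of chromosome 10 from 107.5 Mb, among the first 5 on day 0 and not on day 6, had 3.54 and 8.41 on day 0 and 2.79 and 6.36 on day 6.

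By whole chromosome the extremes were the same on both days. Chromosome 19 had the highest multiple on both days, with means of 1.95 ± 0.0809 (SD, n = 2) at first and 1.89 ± 0.0475 (SD, n = 2) on day 6, and X the lowest, 0.427 ± 0.0108 and 0.414 ± 0.0547. The days did not overlap in 6 of 19 chromosomes (31.6%), with 5, 13 and 14 higher and 2, 8 and 18 lower on day 6. Libraries in random order would separate by day at a rate of 0.333, the smallest exact permutation p with 2 libraries a day. The share found is near that rate, so these chromosomes are named as a description and not as changed. Chromosome 8 had 1.20 and 1.14 on day 0 and 1.03 and 1.04 on day 6, and chromosome 5 had 0.972 and 0.969 on day 0 and 1.02 and 1.13 on day 6. Chromosomes 5 and 8 kept this order with matched numbers of captured sites and in reads.

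**Figure D5:**
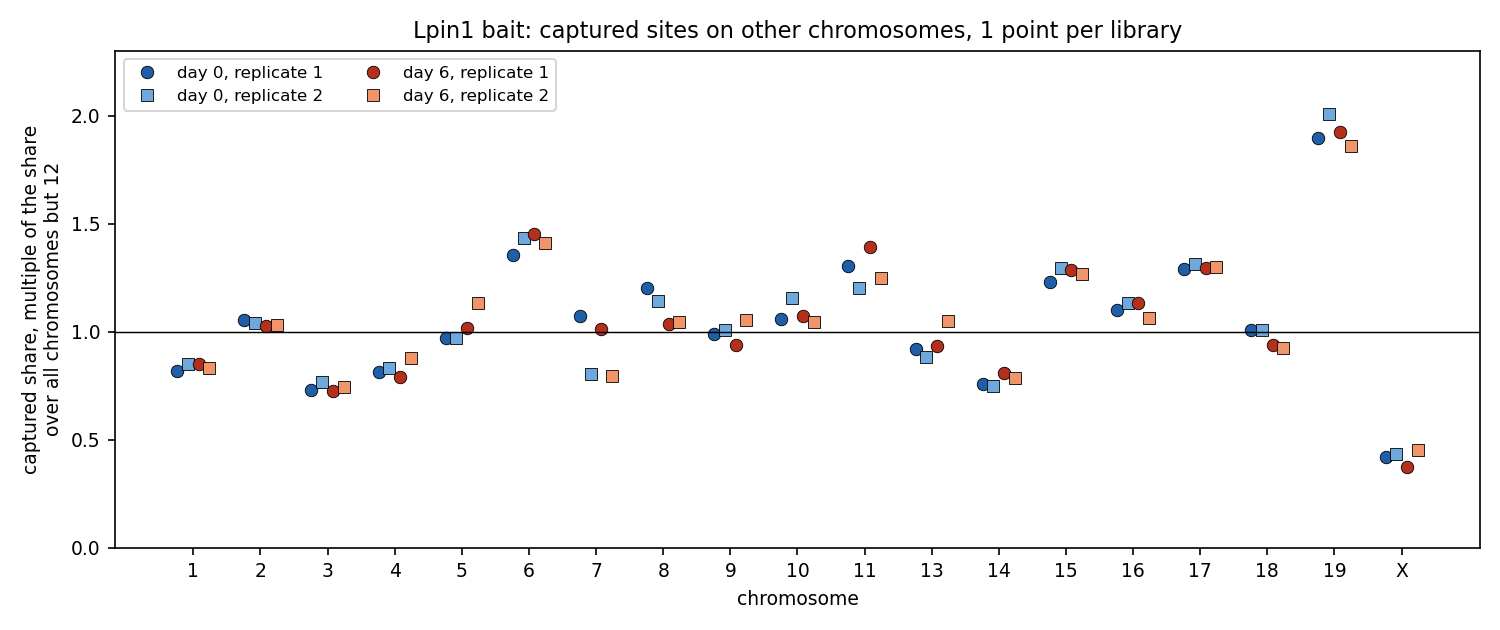
Captured share of HindIII sites on each other chromosome as a multiple of the share over all chromosomes but 12; each point is 1 library, blue for day 0 and red for day 6. Chromosome 19 is highest and X lowest in all 4 libraries, and on chromosome 7 the replicate 1 libraries of both days lie above the replicate 2 libraries.

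Few single sites on other chromosomes recurred. The day 0 libraries shared 1261 captured sites, 6.70% of those of replicate 1 and 7.71% of those of replicate 2, and the day 6 libraries shared 398, 5.02% and 11.4%. With 3483 captured sites in each library, the day 0 pair shared 1.73%, the day 6 pair 4.35%, and pairs of different days 1.85% to 2.65%. A share of 0.444% would be shared if sites were drawn evenly. On chromosome 12, window profiles agreed more: over 118 windows of 1 Mb the Spearman correlation was 0.955 within day 0, 0.831 within day 6 and 0.824 to 0.914 between days, given as a description, since windows of 1 library share its depth. With captured sites matched, the day 6 pair shared more single sites on other chromosomes than pairs of different days. As deposited it lay within the range of those pairs, 2.29% to 5.60% of the day 0 library and 10.1% to 12.8% of the day 6 library. Matching kept 4340 reads there of day 0 replicate 1 and 311391 of day 6 replicate 2. By window profile the day 6 pair lay within the range of pairs of different days.

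Tests of the difference between baits, on 3286 windows of 500 kb outside the bait chromosomes, called 0 windows (0%). The day 6 change of Lpin1 against that of Pparg gave 234 windows at an unadjusted p under 0.05 and that against Ifng gave 178, in an edgeR fit over all 27 libraries. With windows of 1 Mb, 1 passed against Ifng.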

How the data were processed

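Chromatin contacts of the Lpin1 bait were measured by 4C-seq with HindIII and DpnII. The authors deposited counts, whole numbers of reads per HindIII site, with no normalisation. Per the submitters' processing notes, Bowtie and the build mm9 were used; the version and read filters are not given in the sources used here. Replicate numbers come from the names of the deposited tables. Nothing in the labels says that they stand for separate cultures, and p-values then cover only the spread between these libraries, which may be technical.

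Sites within 10 kb of the bait were left out. Reads on chromosome 12 were summed over windows of 100 kb (1 Mb as an alternative), and captured sites elsewhere over windows of 500 kb with a mean of at least 3. The test of windows was edgeR's quasi-likelihood test (version 4.0.16, R 4.3.3; robust, TMM, filterByExpr on chromosome 12, 9 libraries in 5 groups) at a Benjamini-Hochberg adjusted p under 0.05. Single values had exact permutation tests in SciPy 1.17.1. Matching used 20 random thinnings with seed 1. The fit was tested on simulated data. Windows named are up to 5 per direction by smallest p with both libraries of a day beyond both of the other, those at the bait, and the 5 captured most on each day. Where no window passed, those of smallest p are named. Replicate numbers were not treated as pairs: on chromosome 12 windows, deviations of same-numbered libraries of day 0 and day 6 correlated at -0.0452, and those of other pairs of days at -0.0216 to 0.0460. On chromosome 7 the captured share did follow the number. Members, windows and lists were chosen with earlier results of these data known. No sequence is shown, since no genome of the build mm9 was used here. Alternatives were DESeq2 1.42.0, other windows, filters, zones and scalings, captured sites for reads, a replicate block, and leaving out each library.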

Additional observations from a re-analysis of the deposited data

Results flagged for a closer look

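The share of captured sites on other chromosomes that lay in the most captured quintile of windows differed in its day 6 change between baits. It was 5.60 percentage points higher on day 6 for Lpin1, with both day 6 libraries above both day 0 libraries, and -7.28 points for Pparg, with both below. The difference of 12.9 points had a two-sided exact permutation p of 0.0556, the smallest that 2 libraries a day can give, so it could not pass 0.05. The quintiles were chosen after the data were seen. The windows were those ranked on the Lpin1 libraries; ranked on its own libraries, Pparg gave a difference from Lpin1 of 14.8 points. Captured sites outside the bait chromosomes numbered 16224 and 13940 on day 0 and 6789 and 2995 on day 6 for Lpin1, and 24484 and 9781 on day 0 and 11709 and 2917 on day 6 for Pparg. Their part in this difference was not tested.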

How the results depend on the processing

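The number of 100-kb windows of chromosome 12 that passed, 4, was 125 with DESeq2, 0 in captured sites, 7 without TMM, 0 with the 4 libraries of the 2 days alone, 1 with 200-kb windows, 8 with 1-Mb windows and 1 with a zone of 100 kb. It ranged from 0 to 111 when each library was left out in turn. The 8 windows of 1 Mb became 15 with DESeq2, 1 without TMM, 0 with the 4 libraries alone, and 0 to 44 when each library was left out. A replicate block, fitted without the B cell library, gave 3 passing windows at 100 kb and 9 at 1 Mb. That fit lost the window from 5.0 Mb (adjusted p 0.0783) and gained that from 64 Mb (adjusted p 0.0312), both by edgeR. Without the B cell library and without a block, 3 windows of 100 kb passed as well. The lower number at 100 kb can therefore not be credited to the block. In the main fit the numbers were not treated as pairs. The block was not run for the comparisons between baits. For the difference from Ifng on other chromosomes, 1 window of 1 Mb passed. Of the differences in share, that of chromosome 12 turned to 0.746 points in captured sites (-18.3 to -7.20 without each library), that within 1 Mb to -1.85 points with a zone of 100 kb (-1.92 to 6.21), and that beyond 20 Mb to 1.23 points (-3.03 to 1.87). The difference in exponent turned to 0.0322 from 100 kb to 10 Mb (-0.0387 to 0.0366; 0.00527 without day 6 replicate 2). The low-side share and both shares in the top quintile kept their direction in all alternatives run. The causes of these changes were not tested. Day 6 replicate 2 had the fewest reads and captured sites of the 4 libraries.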

Other observations

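Captured sites on chromosome 7 followed the replicate number rather than the day, a pattern chosen after its values were seen. Relative to all chromosomes but 6, 10 and 12, the 4 replicate 1 libraries of the Lpin1 bait in 3T3-L1 cells had multiples of 1.05 to 1.10 on chromosome 7, and the 4 replicate 2 libraries 0.818 to 0.951. On day 0 they were 1.10 and 0.837 and on day 6 1.05 and 0.818. Chromosome 7 was the 1 of 17 chromosomes on which the replicate numbers of this bait did not overlap. Such chromosomes numbered 2 of 17 for Pparg, 16 and X, and 6 of 17 for Ifng, and chromosome 7 was not among them. The share of reads on chromosome 12 was also higher in replicate 1 than in replicate 2 on each of the 4 days, with 76.6% and 65.5% on day 0, 76.7% and 71.7% on day 1, 65.8% and 63.0% on day 2 and 60.1% and 56.5% on day 6.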
